A study of Homo sapiens with 2 samples.

Results

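The plasminogen activation system was described through 9 genes in ACHN, an established line of human renal carcinoma. These were the activators PLAU and PLAT, the zymogen PLG, the receptors PLAUR, PLGRKT and LRP1, and the serpins SERPINE2, SERPINB2 and SERPINF2. Members were the array's transcript clusters, its units for a gene, whose only gene symbol in the platform annotation was one of these names. Of the 9 genes, 8 had such a cluster, 1 each, out of 18417 genes in all, and SERPINB2 was not analysed here. PLG had 3 further clusters, which also carried the symbols of its near-identical relatives and were left out.

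Both cultures were ACHN cells that the labels call a clear cell renal carcinoma line, grown in medium with 10% serum and 400 µg/ml G418, a drug that selects transfected cells. One was transfected with an shRNA against Kindlin-2, an adaptor that binds beta integrin tails, and the other with a control shRNA. Each group was 1 array (n = 1), so every value below is a single measurement with no replicate check, no test was possible, and the number of arrays limits the precision. The labels do not say whether the cells were a pool or a clone. FERMT2, which encodes Kindlin-2, had a log2 value of 8.26 on the knockdown array and 9.37 on the control array, 2.16-fold lower in the direction of its label. Of 10 renal carcinoma markers analysed, 6 were kept by the filter used below, and 1 passed 1.5-fold in each direction. PAX8 stood at 11.29 and 11.43, in the same order, and vimentin (VIM) at 12.68 and 12.48. PAX2 was 1.58-fold lower (9.09 and 9.75) and CDH6 1.88-fold higher (7.32 and 6.41), while KRT8 and KRT18 differed by -0.54 and -0.44. The proximal tubule markers LRP2, CUBN, MME and AQP1 were all below 6.52, the median of all values, on both arrays. Of the endothelial markers 1 of 8 reached that level on either array, of the leukocyte markers 2 of 7, and PTPRC, which marks leukocytes in general, stood at 3.54 and 3.53. Of the fibroblast and smooth muscle markers 6 of 10 reached it, and the summed linear signal of all 10 was 2145 on the knockdown array and 3729 on the control array. Of the 6, 3 were at least 1.5-fold lower: RGS5 (9.65 and 10.81), ACTA2 (9.64 and 10.40) and PDGFRB (6.31 and 7.08). The collagen genes COL1A1 (7.45 and 7.28), COL1A2 (6.50 and 6.52) and COL3A1 (6.52 and 6.51) were close in value. COL1A2 and COL3A1 lay at about the median of all values. The fibroblast markers DCN (3.39 and 3.46) and LUM (3.32 and 3.27) were dim. The summed signal of the leukocyte markers was 1613 and 908, most of it from CD68, also a lysosomal gene, at 10.25 and 9.01. The part of these markers in the results was not tested.

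Plasmin is a serine protease that dissolves fibrin and cleaves matrix proteins, and it is made from plasminogen, a zymogen that circulates after its release from the liver. Urokinase, bound to its receptor at the cell surface, and tissue plasminogen activator cut plasminogen into plasmin. Serpins trap these proteases in covalent complexes, which endocytic receptors of the LDL receptor family remove. In the kidney, tubule cells make urokinase and release it into urine.

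The stretches before the start of 4 members are shown for orientation. PLAU, PLAUR and SERPINE2 are members with higher values in the knockdown array, and LRP1 had close values on both. Each is 250 bases on the gene's own strand, from RefSeq on GRCh38.p14. Promoter entries were matched by symbol for 7 of the 9 members, and PLAT and SERPINF2 had none. PLAU and SERPINE2 have a pair of starts in that table. The PLAU start downstream and the SERPINE2 start upstream of the other are shown, and the array does not tell which start was used. The other PLAU stretch holds 0 matches to the 5 motifs searched, and the other SERPINE2 stretch holds 1, to GGGCGG. Capitals mark every match, on either strand, to TGAGTCA (the letters AP-1 binds), AGGAAG (an ETS core) or GGGCGG (a GC box). TGACGTCA (the cAMP response element) and GGAATG (a TEAD motif) were searched as well. No 2 of these matches overlap in the sequences shown.
PLAU, chr10:73910882-73911131, plus strand: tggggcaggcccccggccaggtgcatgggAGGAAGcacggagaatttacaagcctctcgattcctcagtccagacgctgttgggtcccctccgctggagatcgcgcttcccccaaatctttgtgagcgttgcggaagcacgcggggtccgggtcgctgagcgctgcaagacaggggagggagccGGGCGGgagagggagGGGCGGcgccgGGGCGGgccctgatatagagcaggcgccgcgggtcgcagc
PLAUR, chr19:43670170-43670419, minus strand: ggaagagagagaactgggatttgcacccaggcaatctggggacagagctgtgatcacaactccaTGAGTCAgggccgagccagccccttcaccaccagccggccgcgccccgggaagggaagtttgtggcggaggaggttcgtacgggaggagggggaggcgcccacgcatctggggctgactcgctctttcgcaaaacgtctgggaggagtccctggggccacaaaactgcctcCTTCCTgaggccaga
SERPINE2, chr2:224038641-224038890, minus strand: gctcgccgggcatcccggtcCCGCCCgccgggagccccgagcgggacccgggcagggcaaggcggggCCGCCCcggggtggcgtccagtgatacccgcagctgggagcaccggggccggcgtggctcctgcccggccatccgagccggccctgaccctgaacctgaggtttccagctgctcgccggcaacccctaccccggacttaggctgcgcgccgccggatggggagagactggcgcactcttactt
LRP1, chr12:57128233-57128482, plus strand: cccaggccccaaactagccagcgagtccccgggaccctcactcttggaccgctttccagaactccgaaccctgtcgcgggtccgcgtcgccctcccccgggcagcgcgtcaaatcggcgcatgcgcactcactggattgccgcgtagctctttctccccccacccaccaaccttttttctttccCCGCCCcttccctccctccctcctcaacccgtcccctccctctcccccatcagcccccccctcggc

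The PLAUR sequence holds TGAGTCA once, 186 bases before the start, and AGGAAG once as its reverse complement, 15 bases before it. The PLAU sequence holds AGGAAG once, 221 bases before the start, and GGGCGG 3 times, 66, 51 and 40 bases before it. SERPINE2 has GGGCGG at 230 and 183 bases and LRP1 at 66 bases before the start, each as its reverse complement. Among all 35116 stretches of the same length, 4.2% hold TGAGTCA, 28.7% AGGAAG and 42.6% GGGCGG. TGACGTCA (1.65% of all stretches) and GGAATG (11.9%) were found in none of the 7 members with an entry. A match describes the letters only and says nothing of a factor bound there.

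Both plasminogen activators were higher in the knockdown array, and so were the urokinase receptor and the inhibitor SERPINE2. Genes were kept if either array gave a value of at least 6.52, which left 11822 genes and 7 of the 8 members. All 7 were above that level on both arrays, so none passed through a single array. Of the 7, 4 were at least 1.5-fold higher in the knockdown array (57.1%, beside 5.1% of all genes kept). Of them 1, PLAU, was at least 2-fold higher (1.41% of all genes kept). No member was 1.5-fold lower (5.23% of all genes kept) or 2-fold lower (1.26%). On either side of 0, 6 members lay above it (46.4% of all genes kept) and 1 below it (53.2%). The median log2 difference was 0.70 over the 7 members and -0.02 over all genes kept. With members named with earlier results of these arrays known, these shares describe the 2 arrays only.

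**Figure D1:**
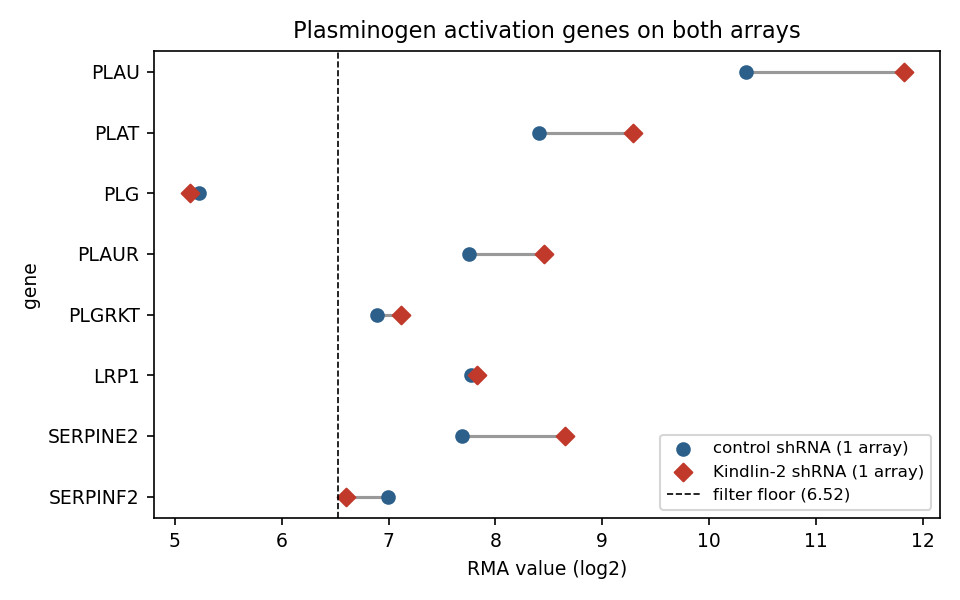
Log2 RMA value of each member (rows) in the control shRNA array (blue circles) and the Kindlin-2 shRNA array (red diamonds), 1 array each, with the filter level of 6.52 dashed. PLAU, PLAT, PLAUR and SERPINE2 lie to the right in the knockdown array, whereas the points of LRP1 and PLG nearly coincide; positions of different genes are not comparable, since probes differ in brightness.

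PLAU encodes urokinase, the activator that acts on cells. Its log2 value was 11.83 on the knockdown array and 10.34 on the control array (transcript cluster 7928429). It was therefore 2.80-fold higher in the knockdown array, a log2 difference of 1.48. Of the other genes kept, 46 had a larger positive difference. Among the 500 genes nearest to it in mean value, 1 had a larger positive difference, and the median size of a difference there was 0.19. PLAU thus lay near the upper edge for genes of its brightness. The genes next to it in difference were SLC20A1, a phosphate transporter, at 1.49 and JAM2, a junctional adhesion molecule, at 1.52 above it. SLC7A11, a cystine transporter, at 1.47 and KCNJ16, a potassium channel, at 1.47 lay below it. With 1 array a group this order is a closeness of single differences.

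PLAT encodes tissue plasminogen activator, the activator best known for dissolving clots. Its log2 value was 9.29 on the knockdown array and 8.41 on the control array (transcript cluster 8150509). It was 1.84-fold higher, a log2 difference of 0.88. Of the 500 genes nearest to it in mean value, 16 had a larger positive difference, so PLAT stood less far out than PLAU among genes of like brightness. PLG, the substrate of both activators, had values of 5.14 and 5.23 (transcript cluster 8123259) and did not pass the filter. The table holds no detection calls, so whether PLG was absent or dim cannot be told apart. Of 6 hepatocyte markers 2 passed the filter, APOA1 at 7.20 and 7.09 and SERPINA1 at 5.97 and 7.02. ALB was below the filter level, at 4.13 and 4.38.

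Among the receptors, PLAUR was the 1 at least 1.5-fold higher. PLGRKT was 1.17-fold higher, and 1.55-fold only when the median of its 50 nearest genes on the chromosome was subtracted. PLAUR encodes the GPI-anchored receptor that holds urokinase at the cell surface. Its log2 value was 8.45 on the knockdown array and 7.75 on the control array (transcript cluster 8037374), 1.62-fold higher. Of the 500 genes nearest in mean value, 24 had a larger positive difference. PLGRKT, a transmembrane plasminogen receptor, had values of 7.12 and 6.89 (transcript cluster 8159984), a log2 difference of 0.23. That size was common, since 199 of its 500 nearest genes in mean value differed by more in either direction. LRP1, the endocytic receptor that takes up urokinase and its serpin complexes, had values of 7.83 and 7.77 (transcript cluster 7956301), a log2 difference of 0.06. Of its 500 nearest genes, 417 differed by more. The ligand PLAU and its receptor PLAUR were therefore both higher in the knockdown array, while the clearance receptor had nearly the same value on both.

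Of the serpins measured, 1 passed 1.5-fold, SERPINE2, and SERPINF2 did not. SERPINE2, protease nexin-1, inhibits thrombin, urokinase and plasmin. Its log2 value was 8.65 on the knockdown array and 7.69 on the control array (transcript cluster 8059376). It was 1.95-fold higher, with 12 of its 500 nearest genes in mean value above it. SERPINF2 encodes alpha-2-antiplasmin, the chief inhibitor of plasmin in blood. Its log2 value was 6.60 on the knockdown array and 6.996 on the control array (transcript cluster 8003656). This was 1.31-fold lower and close to the filter level. Of its 500 nearest genes in mean value, 76 differed by more in either direction.

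**Figure D2:**
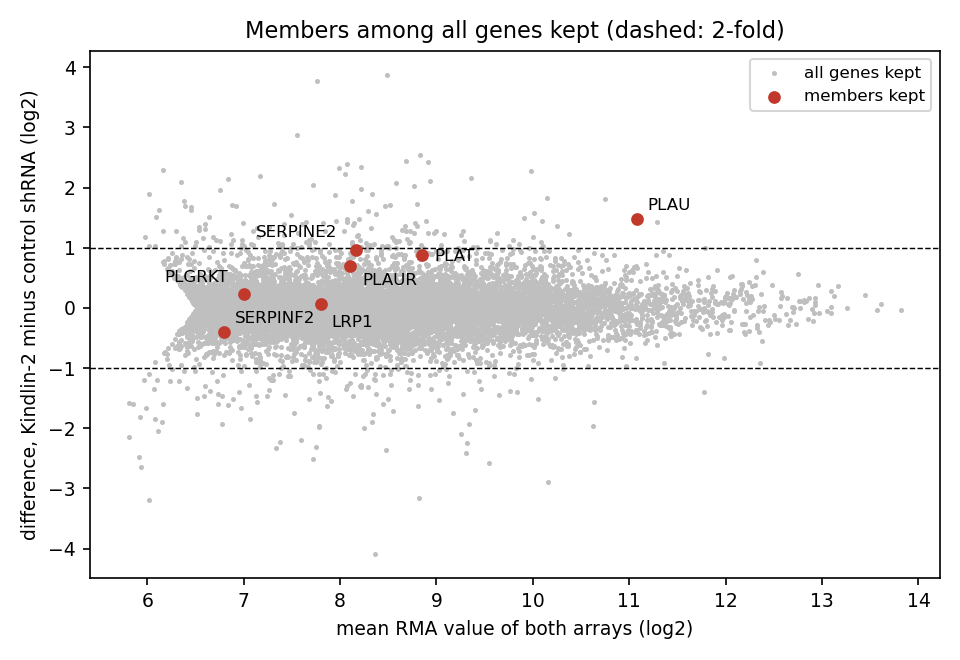
Log2 difference between the Kindlin-2 and the control shRNA array (vertical axis) against the mean log2 value of both arrays (horizontal axis) for the 11822 genes kept (grey) and the 7 members kept (red), with 2-fold dashed. PLAU at 1.48 is the member beyond 2-fold, SERPINE2, PLAT and PLAUR lie between 1.5-fold and 2-fold, and PLGRKT, LRP1 and SERPINF2 lie inside it.

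Median differences were away from 0 on some chromosomes, among them those of PLGRKT and LRP1. The genes kept on chromosome 9, which holds PLGRKT, had a median difference of -0.31 over 495 genes. The 50 genes kept nearest to PLGRKT had a median of -0.40. Relative to these neighbours PLGRKT was 0.63 higher on the log2 scale, or 1.55-fold. For LRP1, on chromosome 12, the median over 630 genes was -0.21, and relative to its 50 nearest genes it was 0.27 higher. The chromosomes of PLAU (10), SERPINE2 (2) and SERPINF2 (17) had medians of 0.0040, 0.04 and 0, and those of PLAT (8) and PLAUR (19) -0.05 and -0.09. Relative to their neighbours PLAU was at 1.49, SERPINE2 at 0.95, PLAT at 0.81 and PLAUR at 0.80. These 4 were thus about as far above 0 with the shift of their surroundings taken away. The part of these shifts in the members' values was not tested.

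**Figure D3:**
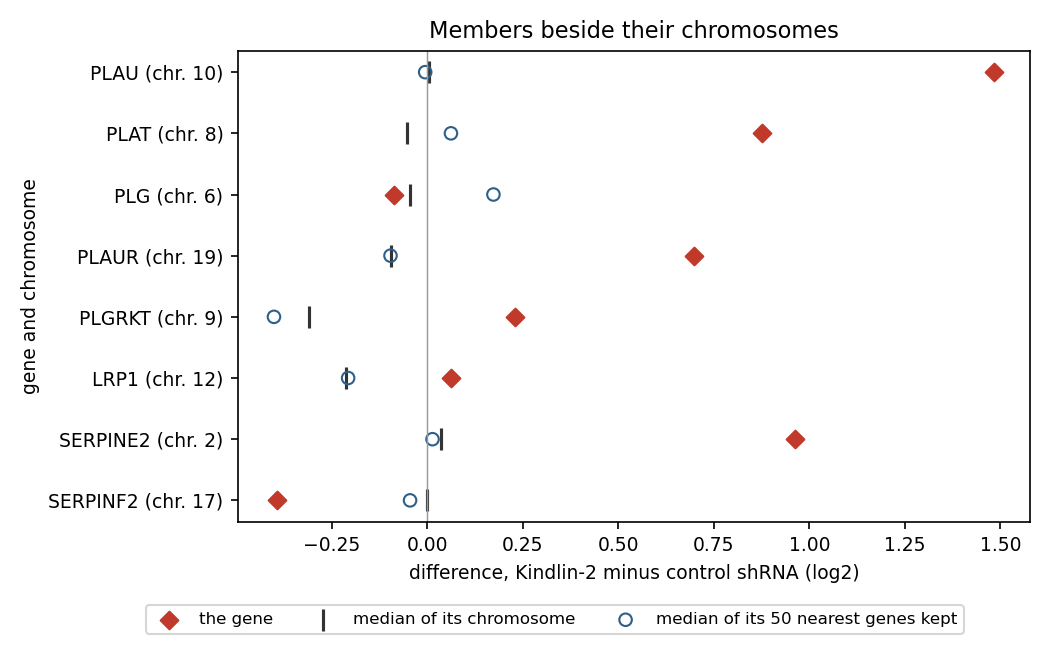
Log2 difference, Kindlin-2 minus control shRNA, of each measured member (red diamonds) beside the median of all genes kept on its chromosome (black bars) and of its 50 nearest genes kept (open circles). PLGRKT and LRP1 lie near 0 while the genes around them lie at -0.40 and -0.21; for PLAU the surroundings lie at -0.01.

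Partners of the urokinase receptor at the cell surface differed in both directions. Of the 12 genes listed 10 were kept, with a median difference of 0.43 (-0.02 over all genes kept). At 1.5-fold, 2 were higher (5.1% of all genes kept) and 1 was lower (5.23%). With the autosome or neighbour median subtracted, 3 were higher and 1 was lower. The integrin subunits ITGB3, at 11.06 on the knockdown array and 9.23 on the control array, and ITGA3, at 12.29 and 11.29, were 3.55-fold and 2.003-fold higher. ITGB1 differed by 0.46. Vitronectin (VTN), a matrix protein that binds both the urokinase receptor and integrins, had values of 6.71 and 7.91 and was 2.29-fold lower. EGFR, which lies on chromosome 7 among neighbours with a median of -0.22, differed by -0.49. The receptor PLAUR was thus higher and its matrix ligand VTN lower on the same array, where VTN, at 6.71, was close to the filter level of 6.52.

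The proteins that hold plasminogen on cells were bright on both arrays, and most were close in value. Of 5 listed 4 were kept, and none was 1.5-fold higher or lower. ENO1, the glycolytic enolase that also binds plasminogen on the surface, stood at 13.05 and 13.13. S100A10, a plasminogen receptor with annexin A2, stood at 12.70 on one array and 12.71 on the other. KRT8, also in this list, stood at 12.11 on the knockdown array and 12.65 on the control array, 1.46-fold lower. Its 50 nearest genes on chromosome 12 had a median of -0.25. The LDL receptor family, to which LRP1 belongs, went both ways. Of 7 genes kept 1 was at least 1.5-fold higher (5.1% of all genes kept) and 2 were lower (5.23%). The higher one was LRP8 (9.05 and 8.15), a receptor for reelin. VLDLR, which also takes up urokinase complexes, was 1.61-fold lower (9.95 and 10.63), and LRP5, a Wnt coreceptor, 1.58-fold lower (7.56 and 8.22). The 50 nearest genes of VLDLR, on chromosome 9, had a median of -0.38 and those of LRP5, on chromosome 11, of -0.13. With these medians subtracted neither was 1.5-fold lower. LRPAP1, the chaperone of this family, differed by 0.45 and LRP6 by -0.33.

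Other enzymes that activate urokinase or plasminogen were mostly dim, with 4 of 10 kept. CTSB encodes cathepsin B, a lysosomal protease able to activate pro-urokinase. It had values of 10.96 and 10.17 and was 1.74-fold higher in the knockdown array, while cathepsin L (CTSL) differed by 0.15 and coagulation factor XII (F12) by 0.03. Of 9 other inhibitors of plasmin or its activators, TFPI2 was the 1 gene kept. TFPI2, a Kunitz-type inhibitor of plasmin, had values of 11.09 and 10.17 and was 1.88-fold higher, although its 50 nearest genes on chromosome 7 had a median of -0.27. The other 8, SERPINA5 and SERPING1 among them, were below the filter level on both arrays.

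Most other serpins were dim too. Among 31 genes other than members whose names start with SERPIN, pseudogenes included, 6 were kept, with a median difference of -0.18. The inhibitors SERPINA5, SERPINI1, SERPING1 and SERPINC1 are in this list and in the preceding one. At 1.5-fold, 0 passed upward (5.1% of all genes kept) and 2 downward (5.23%). SERPINB1, an intracellular inhibitor of neutrophil proteases, was 1.76-fold lower (9.90 and 10.71). SERPINA1, alpha-1-antitrypsin, was 2.07-fold lower, with a value of 5.97 in the knockdown array, under the filter level, and 7.02 on the control array. The collagen chaperone SERPINH1 differed by -0.27 and SERPINB8 by 0.19. SERPINE2 was thus the 1 serpin kept, members and others together, that was at least 1.5-fold higher.

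**Figure D4:**
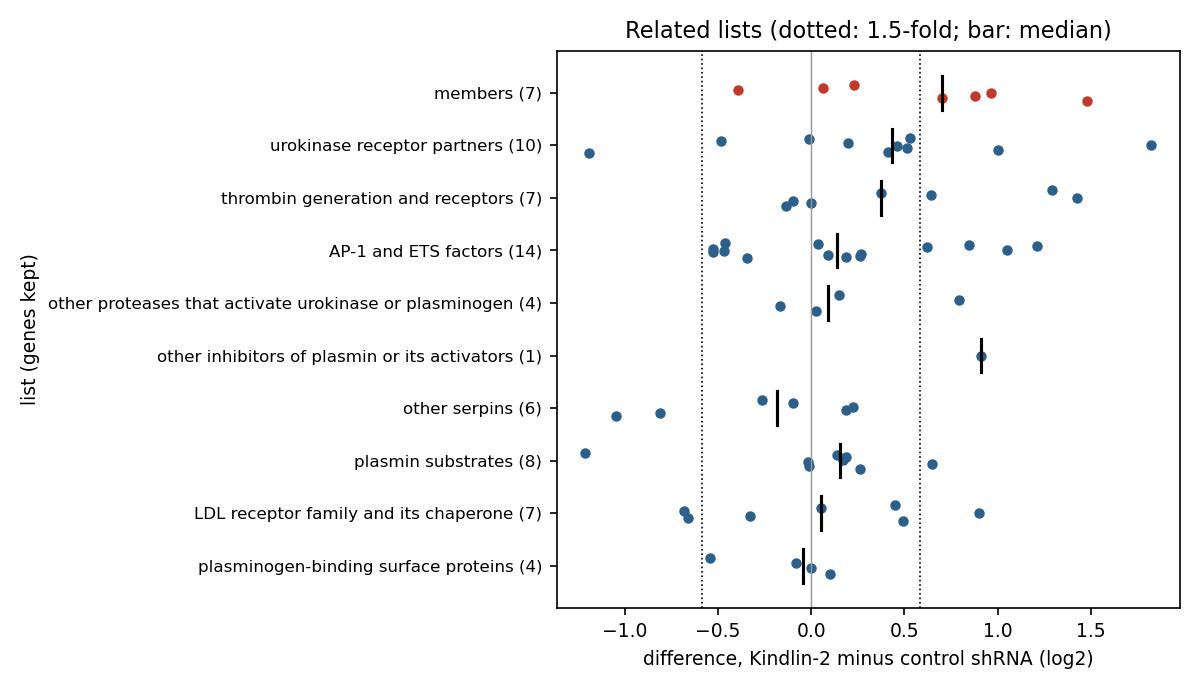
Log2 difference, Kindlin-2 minus control shRNA, of each gene kept (points) in the members (red) and the 9 related lists (blue), with the number of genes kept, the median of each list (bars) and 1.5-fold dotted. The members have a median of 0.70 and the receptor partners 0.43, whereas the plasminogen-binding proteins at -0.04 lie close to 0 and the other serpins lie at -0.18.

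Plasmin substrates were alike on both arrays for the most part, with 8 of 21 kept and a median of 0.16. Thrombospondin-1 (THBS1) stood at 13.01 and 12.84 and fibronectin (FN1) at 12.71 and 12.45. The laminin chain LAMC1 was 1.56-fold higher (11.10 and 10.45), which is under 1.5-fold once the median of its 50 nearest genes, 0.13, is subtracted. In turn, IGFBP3, a carrier of insulin-like growth factors, was 2.32-fold lower (7.17 and 8.38). The fibrinogen chains FGA, FGB and FGG were below the filter level on both arrays.

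Thrombin is another target of SERPINE2, and some genes of thrombin generation and of its receptors had larger differences than most members. Of 7 kept, 3 passed 1.5-fold upward (5.1% of all genes kept) and none downward (5.23%). The upward count was 2 with the autosome or neighbour median subtracted and with both values required above the filter level. THBD encodes thrombomodulin, which turns thrombin toward protein C. It was 2.69-fold higher (8.36 and 6.93), and PROCR, the protein C receptor, was 1.56-fold higher (10.23 and 9.59). Both lie on chromosome 20, where their 50 nearest genes had medians of 0.27 and 0.21. F2RL2, a protease-activated receptor, was 2.45-fold higher, from 5.89, under the filter level, on the control array to 7.18 in the knockdown array. F2R, the main thrombin receptor, differed by 0.38 and the inhibitor TFPI by -0.10.

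Members of the AP-1 and ETS families of transcription factors, and SP1, act on the PLAU and PLAUR genes in other cells. The 14 of them listed here, a selection from these families, were all kept. Of 14, 4 passed 1.5-fold upward (5.1% of all genes kept) and none downward (5.23%), with a median of 0.14. With the autosome or neighbour median subtracted, 1 passed downward. The 4 that passed upward were all ETS factors. ETV4 stood at 8.03 on the knockdown array and 6.81 on the control array, ETS1 at 9.57 and 8.52, ETV5 at 8.01 and 7.16, and ETV1 at 7.59 and 6.97. The AP-1 subunits FOSL1 and FOSL2 were close in value on both arrays, with differences of 0.26 and 0.09. Of the 14 genes, 9 lay above 0 and 5 below it. Those below were ETS2 and JUNB (both -0.53), JUND (-0.47), SP1 (-0.46) and FOS (-0.34). Whether any of these factors bears on the members was not tested.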

How the data were processed

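Expression was measured on 2 Affymetrix Human Gene 1.0 ST arrays, 1 per group, and groups came from the shRNA label. The authors deposited log2 values of 33297 transcript clusters, made by RMA with Expression Console 1.4.1 of Affymetrix, according to notes on processing by the submitters. That the scale is log2 was judged from the range of 2.13 to 14.04. RMA shrinks differences between dim values. The sources used here do not give which arrays were normalised together.

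Symbols came from GEO's platform annotation, updated through Entrez IDs to RefSeq of GRCh38.p14 (19429 of 19460 clusters with a single symbol matched). Several symbols were given for 1754 clusters and none for 12083, and these were left out. The brightest cluster stood for a gene. Control values were subtracted from Kindlin-2 shRNA values, and 2-fold and 1.5-fold were counted. No genome build of the array was used, and RefSeq served for names, promoters and which genes neighbour each other.

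The members and lists were chosen with earlier results of these data known. Genes named were the 9 members, FERMT2, the 2 genes on either side of PLAU in difference and, per list, up to 4 genes per direction at 1.5-fold and the 2 brightest others. Markers, and list genes named as below the filter level, were named beside that rule, after their values were seen. So were KRT8 as a plasminogen binder and the 5 AP-1, ETS and SP1 genes below 0. Counting was tested on simulated data. Python 3.11.15, pandas 2.3.3 and statsmodels 0.14.6 were used. Alternatives were other scalings between arrays (loess span 0.3), filters, folds, the mean over clusters or list members, and subtraction of chromosome or neighbour medians.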

Additional observations from a re-analysis of the deposited data

How the results depend on the processing

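No paired analysis was possible because each group held 1 array. All 8 measured members kept the sign of their difference under every alternative run, and PLAU ranged from 1.46 to 1.49. The mean over clusters could not change a member, since each had 1 cluster. Such a range comes from settings applied to the same arrays and does not measure replicate spread. A value was taken as moved when it shifted by over 0.1 on the log2 scale, or a count by over 1.5 times, and 31 of 293 did. The causes were not tested. With the autosome median subtracted, LRP1 was at 0.27 and PLGRKT at 0.54, the activating proteases at 0.21 and the other inhibitors (TFPI2) at 1.13. With the median of 50 neighbours subtracted, PLG was at -0.26, LRP1 at 0.27, PLGRKT at 0.63, AP-1 and ETS factors at 0.26, the activating proteases at 0.24 and the inhibitors at 1.18. The LDL receptor family then had 0 genes 1.5-fold lower and plasmin substrates 0 that were 1.5-fold higher. With the autosome median subtracted, 1 gene of the LDL receptor family was 1.5-fold lower, and with either correction 1 AP-1 or ETS factor was. At 1.5-fold 4 members were higher (5.1% of all genes kept) and at 3-fold 0, where the share of all genes kept was not counted. With dim genes kept, list medians were -0.086 (LDL receptor family), 0.12 (inhibitors), -0.015 (activating proteases), -0.041 (other serpins) and 0.095 (thrombin genes). The medians of the LDL receptor family and of the activating proteases thereby turned sign. With both values required above the filter level, other serpins were at -0.039 with 1 gene 1.5-fold lower, and thrombin genes at 0.19. The mean in place of the median gave 0.20 for activating proteases, -0.30 for other serpins, 0.020 for plasmin substrates, 0.50 for thrombin genes and 0.32 for receptor partners. With quantile normalisation repeated, 1 plasminogen-binding gene was 1.5-fold lower.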
